A study of Mus musculus with 9 samples.

Results

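The interferon response genes described here are 40 genes that interferons switch on, taken by symbol from the probe annotation of the array. The rule itself uses no measured value, but the list was drawn up with earlier results of these data known. 39 of them had a probe, 72 probes in all, and 33 genes were detected well enough to be tested, among 12171 tested and 19057 named genes on the array. RNA came from the epididymal fat of 9 FVB/N mice aged 3 months and fasted for 14 to 16 h, with 1 Illumina bead array for each mouse. 5 of the mice (165, 152, 147, 163 and 164) had the label tg/tg and a Tm5NM1 transgene, which encodes a cytoskeletal tropomyosin, and 4 labelled wt/wt were wild type (mice 141, 142, 143 and 159). The labels name neither the promoter that drives the transgene nor the number of founder lines. The comparison asks whether interferon response genes are expressed at other levels in the fat of mice with the transgene.

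Interferons are secreted proteins that warn tissue of infection. Type I interferons, the alpha and beta forms, act through the receptor pair IFNAR1 and IFNAR2, the kinases JAK1 and TYK2, and the factors STAT2 and IRF9, which act at the interferon-stimulated response element (ISRE) of antiviral genes. Interferon gamma, made mainly by T cells and natural killer (NK) cells, acts through the receptor chains IFNGR1 and IFNGR2 and the gamma-activated site (GAS) of its target genes, and it raises IRF1, the immunity GTPases and the machinery of antigen presentation. The sets overlap, since many genes answer to both. Here 31 members are taken as mainly induced by type I interferon and 9 as mainly induced by interferon gamma. In fat, adipocytes as well as macrophages and lymphocytes can show such responses.

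Part of the members hold these elements in their promoters, and the windows of 6 genes that do are shown, from 250 bases before to 50 bases after the gene start (RefSeq, GRCm38.p6, 5′ to 3′). Capitals mark a match to the ISRE letters, GAAA, any 2 bases and GAAA again, or TTTC, any 2 bases and TTTC on the other strand, or to the GAS letters TTCNNNGAA, whose reverse complement is the same pattern. Rsad2 (chr12:26456403-26456702, minus strand) and Ifit3 (chr19:34583279-34583578, plus strand) had the lowest unadjusted p among the type I members. Isg15 (chr4:156200769-156201068, minus strand) is shown because it holds 3 overlapping ISRE matches and yet differed by only -0.06 on the log2 scale. Irf1 (chr11:53769764-53770063, plus strand) holds a GAS match, and Gbp3 (chr3:142559794-142560093, plus strand) and Irgm1 (chr11:48871371-48871670, minus strand) are GTPases of the interferon gamma group.
Rsad2: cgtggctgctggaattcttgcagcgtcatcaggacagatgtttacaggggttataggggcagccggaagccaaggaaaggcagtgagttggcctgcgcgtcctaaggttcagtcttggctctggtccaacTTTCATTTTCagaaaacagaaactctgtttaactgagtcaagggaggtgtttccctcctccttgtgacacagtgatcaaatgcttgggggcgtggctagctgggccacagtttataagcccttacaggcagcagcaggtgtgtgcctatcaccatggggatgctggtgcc
Ifit3: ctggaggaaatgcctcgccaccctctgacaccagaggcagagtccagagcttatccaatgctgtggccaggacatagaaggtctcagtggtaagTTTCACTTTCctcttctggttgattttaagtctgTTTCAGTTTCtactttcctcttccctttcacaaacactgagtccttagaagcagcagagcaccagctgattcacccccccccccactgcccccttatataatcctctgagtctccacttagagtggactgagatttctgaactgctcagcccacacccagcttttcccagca
Isg15: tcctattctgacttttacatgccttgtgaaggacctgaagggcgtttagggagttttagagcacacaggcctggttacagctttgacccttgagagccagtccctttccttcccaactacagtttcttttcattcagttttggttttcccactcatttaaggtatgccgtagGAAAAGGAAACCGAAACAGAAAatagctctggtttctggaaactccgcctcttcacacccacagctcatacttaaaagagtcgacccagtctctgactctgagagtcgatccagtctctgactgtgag
Irf1: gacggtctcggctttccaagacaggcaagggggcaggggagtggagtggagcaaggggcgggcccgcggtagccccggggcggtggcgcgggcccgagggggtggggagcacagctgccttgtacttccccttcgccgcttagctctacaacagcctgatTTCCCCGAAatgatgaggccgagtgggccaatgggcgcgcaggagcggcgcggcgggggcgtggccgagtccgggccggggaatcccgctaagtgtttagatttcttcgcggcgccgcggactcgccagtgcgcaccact
Gbp3: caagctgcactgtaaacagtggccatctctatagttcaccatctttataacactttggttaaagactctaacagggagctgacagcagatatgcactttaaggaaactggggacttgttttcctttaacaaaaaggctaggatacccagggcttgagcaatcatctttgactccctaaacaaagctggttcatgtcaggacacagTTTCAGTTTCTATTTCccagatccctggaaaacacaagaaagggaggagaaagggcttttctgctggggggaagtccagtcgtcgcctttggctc
Irgm1: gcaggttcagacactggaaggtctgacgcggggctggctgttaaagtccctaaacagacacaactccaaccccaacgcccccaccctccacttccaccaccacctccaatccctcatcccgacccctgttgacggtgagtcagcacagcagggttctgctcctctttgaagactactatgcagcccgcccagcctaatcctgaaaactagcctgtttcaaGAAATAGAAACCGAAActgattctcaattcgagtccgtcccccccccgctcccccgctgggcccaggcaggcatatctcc
The ISRE matches start 120 bases before the gene start in Rsad2 and 156 and 122 bases before it in Ifit3. In Isg15 they start 78, 72 and 66 bases before the start, in Gbp3 45 and 39, and in Irgm1 30 and 24. The GAS match of Irf1 starts 90 bases before the gene start. Promoter windows were given for 31 members, and 15 of these (48.4%) held the ISRE letters, against 3.99% of 27025 genes with a window. The GAS letters were in 10 of the 31 (32.3%), against 9.55% of all genes. Of 22 type I members 11 held an ISRE match and 6 a GAS match, and of the 9 interferon gamma members 4 held each. The ISRE matches of Isg15, Gbp3 and Irgm1 overlap one another. Where a gene has several windows, a match in any of them was counted. Of the tested members with a window, Oasl1, Oasl2, Irf7, Irf9, Dtx3l, Trim25, Psmb9 and Tap1 held neither. A match is a description of these letters and not of a bound site.

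None of the 33 tested members passed the test over all probes (limma, Benjamini-Hochberg, threshold 0.05), in either direction. Over all tested genes 0% passed as higher in transgenic fat and 0.107% as lower. All 9 tested interferon gamma members read higher on average in transgenic fat, with a median log2 difference of 0.41 and a range of 0.18 to 0.82. Of the 24 tested type I members 20 read higher and 4 lower, with a median of 0.19 and a range of -0.10 to 0.63. Over all tested genes the median was 0.04, and 56.5% read higher. At an unadjusted p under 0.05, 8 members (24.2%) read higher and 0 lower, against 5.55% and 3.49% of all tested genes. The count of 8 was 4 without mouse 164 and 12 without mouse 152, 2 with the epididymal marker level as a covariate and 0 with the brighter arrays only, which leave 1 wild-type mouse. In 4 members (12.1%), Rsad2, Ifit3, Rtp4 and Psmb9, every transgenic mouse read higher than every wild-type mouse, against 1.96% of all tested genes, and in 0 members every transgenic mouse read lower, against 1.37%.

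**Figure D1:**
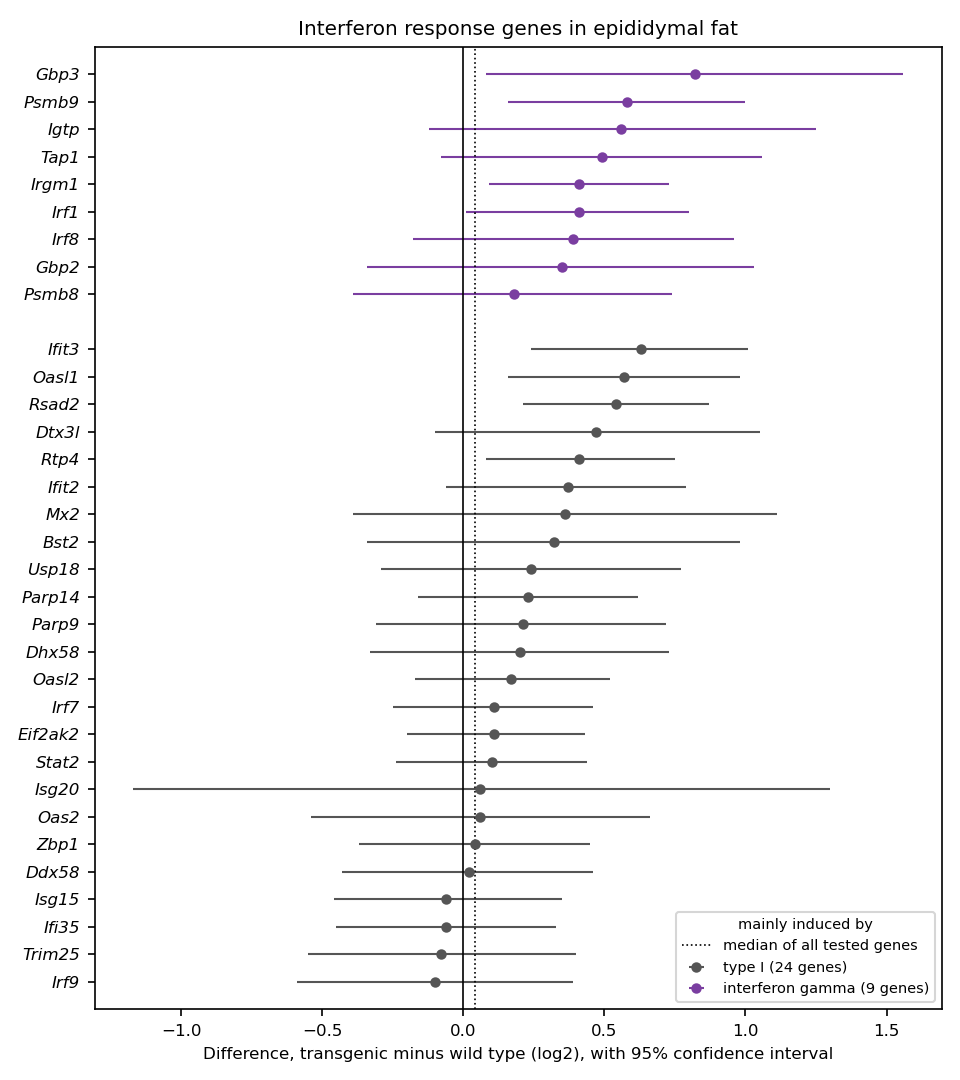
Differences between transgenic and wild-type fat on the log2 scale (horizontal axis) for the 33 tested members, with 95% confidence intervals from limma as bars; genes mainly induced by interferon gamma stand above those mainly induced by type I interferon. All 9 interferon gamma points and 20 of 24 type I points lie to the right of 0, and the intervals of 8 members leave out 0.

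The upper end of the 95% confidence interval lay under a log2 difference of 1 for 25 of the 33 members and reached 1 or more for the other 8. 31 of the tested members were detected on all 9 arrays. Mx2 was detected on 5 transgenic and 3 wild-type arrays. The tested probe of Oasl1 entered the test through 4 transgenic arrays and was detected on 0 wild-type arrays. The place of Oasl1 among the members that read higher was therefore favoured by the filter. In whole tissue, fewer cells of a type and less RNA per cell cannot be told apart. Near-identical gene copies, such as Ifit3 and Ifit3b in the mouse, may share a probe's signal, and this was not tested.

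The array facts that touch these values are few. The median intensity before normalization was 168.9 to 191.5 on the transgenic arrays and 171.9 in wild-type mouse 141, but 142.2 to 147.3 in wild-type mice 142, 143 and 159. The labels do not say whether the dimmer arrays were handled separately. All 9 adipocyte markers with a probe were tested. Their mean levels ran from 7.86 for Retn to 15.90 for Adipoq, which read 15.80 to 16.01 in every mouse. Epididymis markers, 10 of 10 with a probe tested and 11 fixed, averaged 5.08 to 10.16 (log2) in the transgenic mice and 11.06 to 13.84 in the wild-type mice, without overlap of the averages. By single gene, 7 of the 10 were lower without overlap, while Gpx5, Adam7 and Lcn5 overlapped. These read 15.88, 15.99 and 14.70 in transgenic mouse 152. The epididymal level and the genotype can therefore not be told apart by their group means.

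Among the antiviral effectors, Rsad2 (viperin, an enzyme that makes a chain-terminating nucleotide) read, on the log2 scale, 9.66 (mouse 165), 9.20 (152), 9.63 (147), 9.76 (163) and 9.82 (164) with the transgene. Without it the values were 9.0 (141), 9.17 (142), 9.09 (143) and 9.04 (159). Mouse 152 lay close to the wild-type range and the other 4 transgenic mice well above it. The difference was 0.54, a 1.46-fold higher mean, with a 95% confidence interval of 0.21 to 0.87 (limma adjusted p = 0.348). With array weights, which gave mouse 152 a weight of 0.369, it was 0.65 and passed (limma adjusted p = 0.0368). Without mouse 152 it was also 0.65 (limma adjusted p = 0.0655).

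Ifit3, which with its family binds viral RNA lacking host cap marks, read 9.45 (165), 9.60 (152), 9.32 (147), 9.28 (163) and 9.62 (164) in the transgenic mice. The wild-type mice read 9.17 (141), 8.89 (142), 8.88 (143) and 8.37 (159). The groups did not overlap, and mouse 159 was lowest of the 9. The difference was 0.63, with an interval of 0.24 to 1.01 (limma adjusted p = 0.348). The other, dimmer Ifit3 probe differed by 0.41 and its groups overlapped (limma adjusted p = 0.691). Ifit2, of the same family, read 8.83 to 9.56 in transgenic and 8.56 to 9.25 in wild-type mice, differing by 0.37 at the brightest probe and 0.52 at the other (limma adjusted p = 0.581 and 0.442). The probe of Ifit1, the family's best known cap sensor, was detected on 0 arrays. These 3 Ifit genes lie together on chromosome 19.

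**Figure D2:**
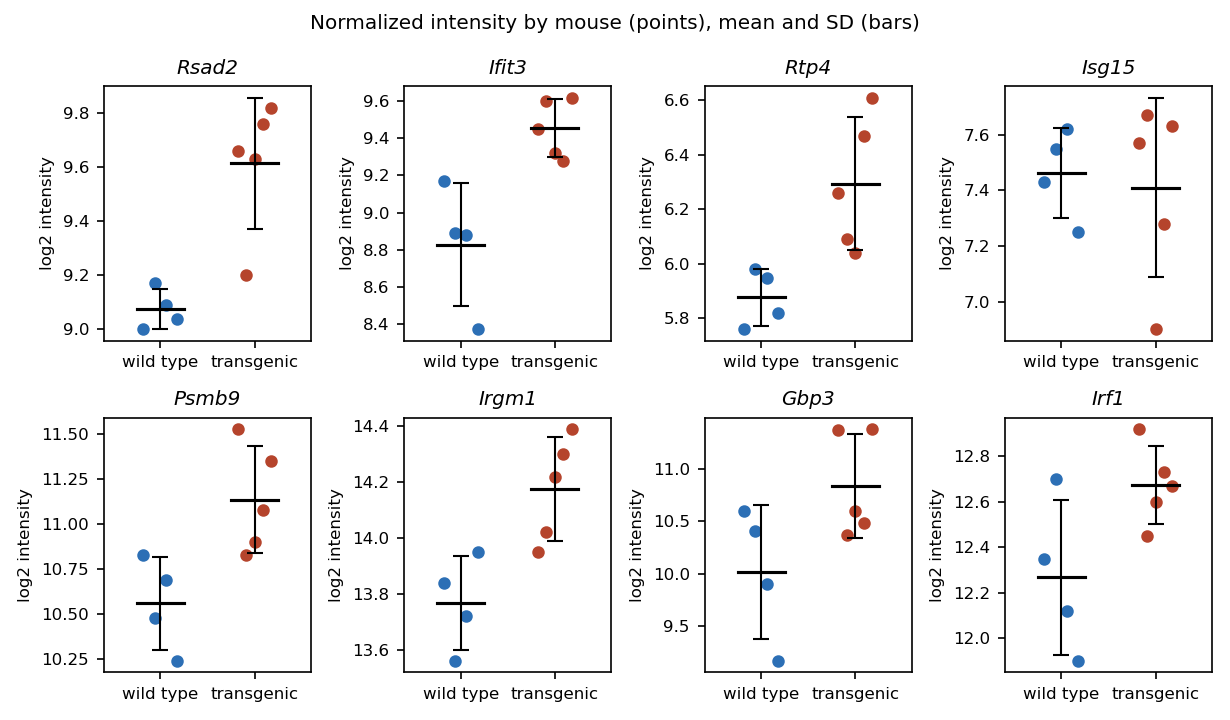
Normalized log2 intensity (vertical axis) of 8 members in each mouse, wild type in blue (n = 4) and transgenic in red (n = 5), with the mean and SD as black bars. Rsad2, Ifit3, Rtp4 and Psmb9 do not overlap between the groups, the last by a margin under the second decimal, whereas Isg15 overlaps fully and differs by -0.06.

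The other effectors had overlapping groups. Mx2, a dynamin-like GTPase, differed by 0.36 (interval -0.39 to 1.11), with wild-type mice 143 at 5.20 and 159 at 7.16; without the former the difference was 0.07 and without the latter 0.73. Bst2 (tetherin, which holds budding virus at the cell surface) differed by 0.32 and read highest in transgenic mouse 147, at 8.79. Without that mouse its difference was 0.10, and without wild-type mice 142 or 143 it was 0.15 or 0.50. Eif2ak2 (PKR, a kinase that stops translation on double-stranded RNA) differed by 0.11 and varied little, from 11.17 to 11.39 in transgenic mice. Isg20, an RNA exonuclease, differed by 0.06 but spread widely: 7.29 in wild-type mouse 142, 10.34 in wild-type mouse 159 and 9.62 in transgenic mouse 152, against 8.25 to 8.52 in the other transgenic mice. Zbp1, a sensor of left-handed nucleic acid, differed by 0.04. Mx1 was detected on 1 array and was not tested. None of these differences was larger than the spread between mice (limma adjusted p from 0.772 to 0.982).

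The oligoadenylate synthetases make a short nucleotide that activates RNase L, and the Oasl proteins are relatives of the same family. Oasl1 differed by 0.57 (limma adjusted p = 0.407). At its tested probe Oasl1 was not well above background in any wild-type mouse or in transgenic mouse 163. The filter kept this probe through transgenic arrays only, so the size of the difference is uncertain. Its transgenic values were 5.79 (165), 5.96 (152), 6.0 (147), 5.31 (163) and 6.06 (164), and its wild-type values 5.0 to 5.47, so mouse 163 lay inside the wild-type range. Another Oasl1 probe, detected on 2 transgenic arrays and 1 wild-type array, was detected too rarely to be tested. Without a filter that probe stood for the gene, and the difference was 0.19 (limma adjusted p = 0.903). Oasl2 differed by 0.17 at its brightest probe, by 0.46 at the next and by -0.35 at the dimmest, so its probes disagreed in direction (limma adjusted p = 0.759, 0.451 and 0.513). Oas2 differed by 0.06 (limma adjusted p = 0.961), with 6.27 in transgenic mouse 152 and 6.95 to 7.08 in the other transgenic mice. The probes of Oas1a and Oas3 were detected on 0 arrays.

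Of the sensors of viral RNA, Ddx58 (RIG-I) differed by 0.02 and Dhx58 (LGP2), its regulator, by 0.20 (limma adjusted p = 0.988 and 0.835). Ifih1 (MDA5) was detected on 0 arrays. In the ISG15 system, which tags proteins with a ubiquitin-like molecule, Isg15 itself read 6.90 to 7.67 in transgenic and 7.25 to 7.62 in wild-type mice, with a difference of -0.06 and an interval of -0.46 to 0.35 (limma adjusted p = 0.947). Usp18, which removes the tag and damps the type I receptor, differed by 0.24, and the ubiquitin ligase Trim25 by -0.08 (limma adjusted p = 0.794 and 0.934). The transcription factors of the type I response differed little: Irf7 by 0.11, Stat2 by 0.10 and Irf9 by -0.10 (limma adjusted p = 0.872, 0.870 and 0.914). In each of these genes the transgenic and wild-type ranges overlapped.

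Parp9 and its ligase partner Dtx3l, which lie beside Parp14 on chromosome 16, act together in ADP-ribosylation and ubiquitination during the interferon response. Dtx3l differed by 0.47 (interval -0.10 to 1.05), Parp14 by 0.23 and Parp9 by 0.21 (limma adjusted p = 0.603, 0.709 and 0.823). A dimmer Parp14 probe gave another picture. Its values were 7.22 (165), 7.11 (152), 7.52 (147), 7.30 (163) and 7.30 (164) in transgenic mice, against 5.87 (141), 6.57 (142), 6.44 (143) and 6.50 (159) in wild type. Its groups did not overlap, which held upward for 2.04% of all tested probes, with a difference of 0.94 and a limma adjusted p of 0.124, the lowest among all 50 tested member probes. It passed with array weights (limma adjusted p = 0.0148), without normalization between arrays (0.00669) and with the table called non-normalized (0.0337), and in none of the other 18 alternatives. Without background correction the difference was 0.46 (limma adjusted p = 0.21), and with the epididymal covariate 0.66 (0.52). Which transcripts of the gene each probe detects was not tested.

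Rtp4, a chaperone of receptors that is strongly induced by interferon, read 6.26 (165), 6.09 (152), 6.04 (147), 6.47 (163) and 6.61 (164) in the transgenic mice. The wild-type mice read 5.76 (141), 5.98 (142), 5.95 (143) and 5.82 (159). The groups did not overlap, though transgenic mice 147 and 152 lay close to wild-type mouse 142. The difference was 0.41, with an interval of 0.08 to 0.75 (limma adjusted p = 0.451). It depended on the processing, at 0.11 with the table called non-normalized, 0.16 without background correction and -0.03 with the epididymal covariate. At this probe the wild-type arrays lay near background, with Illumina's detection p from 0.00882 to 0.0326. Another Rtp4 probe was detected on 0 arrays. Ifi35 differed by -0.06 (limma adjusted p = 0.941). The probes of Xaf1 were detected on 0 arrays, and no probe is named for Ifi44 here.

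The interferon gamma members were compared next. Gbp3, a guanylate-binding GTPase that attacks the vacuoles of intracellular pathogens, read 11.37 (165), 10.37 (152), 10.60 (147), 10.48 (163) and 11.38 (164) in transgenic mice. Wild-type mice read 10.60 (141), 10.41 (142), 9.90 (143) and 9.17 (159). Mice 165 and 164 stood above the rest and mouse 159 below, and the groups overlapped. The difference was 0.82 (interval 0.08 to 1.56) at this probe and 1.01 at the other (limma adjusted p = 0.498 and 0.482). Without wild-type mouse 159 the value at the brightest probe was 0.53 (limma adjusted p = 0.650). Gbp2, which lies near it on chromosome 3, differed by 0.35 (limma adjusted p = 0.760), and by 0.16 without mouse 159, 0.22 without 164, 0.23 without 165 and 0.56 without 152.

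The GTPases of the other family, IRG, guard against vacuolar parasites. Irgm1, a regulator of the family, read 13.95 (165), 14.02 (152), 14.22 (147), 14.30 (163) and 14.39 (164) in transgenic mice and 13.84 (141), 13.56 (142), 13.72 (143) and 13.95 (159) in wild-type mice. The groups met at mice 165 and 159, and the difference was 0.41, with an interval of 0.09 to 0.73 (limma adjusted p = 0.444). The other tested Irgm1 probe differed by 0.12 (limma adjusted p = 0.848). Igtp (Irgm3) differed by 0.56, with 10.27 and 10.28 in transgenic mice 165 and 164 and 9.13 to 9.50 in the other transgenic mice, against 8.46 to 9.52 in wild type (limma adjusted p = 0.600). Without mouse 159 the Igtp difference was 0.33.

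Psmb9 and Psmb8 are catalytic subunits of the immunoproteasome, and Tap1 is part of the peptide transporter that feeds MHC class I. The 3 genes are neighbours on chromosome 17. Psmb9 read 11.53 (165), 10.83 (152), 10.90 (147), 11.08 (163) and 11.35 (164) against 10.83 (141), 10.48 (142), 10.69 (143) and 10.24 (159). The groups touched at mice 152 and 141, and the difference was 0.58 (interval 0.16 to 1.0, limma adjusted p = 0.407). Tap1 differed by 0.49 and Psmb8 by 0.18 (limma adjusted p = 0.581 and 0.863). Tap1 read 8.36 and 8.07 in mice 165 and 164 and 6.74 in mouse 159, with every other mouse between 7.33 and 7.74, and its difference without mouse 159 was 0.31.

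The transcription factor Irf1 read 12.92 (165), 12.45 (152), 12.60 (147), 12.73 (163) and 12.67 (164) against 12.35 (141), 12.70 (142), 12.12 (143) and 11.90 (159). Its groups overlapped through mouse 142. The difference was 0.41 (limma adjusted p = 0.521), and its 5 tested probes differed by 0.35 to 0.51, all the same way. Irf8, a factor of myeloid and B cells, differed by 0.39, with 9.70 and 9.54 in mice 165 and 164 and 9.18 in wild-type mouse 159 (limma adjusted p = 0.661), and by 0.25 without mouse 165. Across all members, 12 genes had several tested probes, and in 9 of them the probes had 1 direction. The exceptions were Dtx3l, Oasl2 and Trim25.

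**Figure D3:**
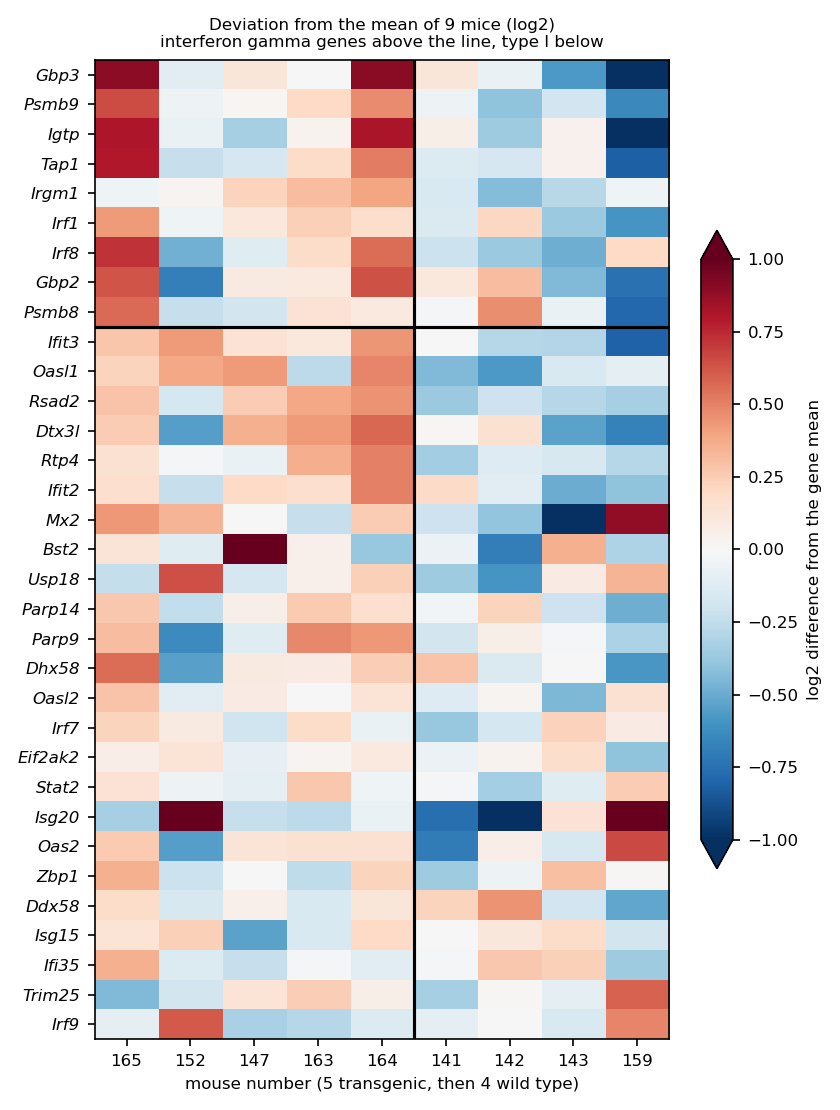
Deviation of each mouse from the mean of the 9 mice (log2, colour, limited to 1 in either direction) for the 33 tested members, transgenic mice left and wild type right of the line. Transgenic mice 165 and 164 are red across most interferon gamma genes and wild-type mouse 159 is blue in most. The median pairwise correlation of type I genes within genotypes is 0.01, over pairs from -0.94 to 0.93.

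Most interferon gamma members varied together from mouse to mouse, but Irgm1 did not. On deviations from the genotype means over the 9 mice, the median pairwise correlation was 0.65 over their 36 pairs, with r over 0.5 in 58.3% of pairs. It was 0.01 over the 276 pairs of type I members (15.2% of pairs over 0.5) and 0.00 over all pairs of tested genes (16.2%). These correlations are descriptions, and all genes of a mouse share its array. The closest pair was Igtp with Psmb9 (r = 0.95). Irgm1 had r from -0.57 (Psmb8) to -0.07 (Gbp2) with 7 of the other members and 0.34 with Irf8, and Irf8 had 0.15 with Irf1 and 0.14 with Psmb8. Some type I members varied with Irf1 too, Parp14 at r = 0.94, Ddx58 at 0.90 and Dtx3l at 0.74. Over the 216 pairs of a type I with an interferon gamma member the median was 0.22, with 30.1% over 0.5. Pairs of type I members ran from r = -0.94 (Isg20 with Parp14) to 0.93 (Rsad2 with Parp9), so a median near 0 does not mean that each varied alone. Isg20 had r = -0.91 with Irf1 but 0.32 with Irgm1 and 0.03 with Irf8. Differences of genes that vary together are not separate results. The highest mouse was 165 or 164 in 9 of the 9 interferon gamma members and the lowest was 159 in 7. Of the 24 type I members, the highest mouse was 165 or 164 in 11.

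By the same measure the genes most like Rsad2 among all tested were Uaca, Hcls1, Asph, Mfsd7a and Gpr146 (r from 0.96 to 0.98), none a member, and Parp9 ranked 25 (r = 0.93). Those most like Ifit3 were Macrod2, Oscp1, Bod1l, Foxc1 and Reep1 (r from 0.91 to 0.95). Rsad2 and Ifit3 had r = -0.18 with each other, so they did not vary together within the genotypes.

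Markers of immune cells were set beside these values, because interferon gamma comes from lymphocytes. The mean over 9 interferon gamma members was 11.50 in mouse 165 and 11.40 in mouse 164, 10.69 to 11.05 in the other transgenic mice, and 10.26 to 10.85 in wild type. The T cell markers, 4 tested of 9 fixed, averaged 8.22 and 8.50 in mice 165 and 164, 6.35 to 6.97 in the other transgenic mice and 6.54 to 6.83 in wild type. All 4 (Cd3e, Cd3d, Cd3g and Cd2) read higher on average in transgenic mice, by 0.61 to 0.71, and none passed (limma adjusted p from 0.618 to 0.709), while Cd4, Cd8a and Cd5 were detected on 0 arrays. The NK cell markers, 3 tested of 7 fixed (Nkg7, Prf1 and Klrd1), averaged 8.39 to 9.92 in transgenic and 7.81 to 8.31 in wild-type mice, again with mice 164 and 165 highest and without overlap, though Prf1 read lowest of the transgenic mice in mouse 165, at 9.96. Nkg7 differed by 1.46 without overlap (limma adjusted p = 0.399), and Ncr1 and Gzmb were detected on 0 arrays. Macrophage markers, 10 tested of 12 fixed, averaged 9.59 to 10.54 in transgenic and 10.05 to 10.37 in wild-type mice, with a median difference of 0.05. Neutrophil markers, 3 tested of 7 fixed, averaged 8.02 and 7.78 in mice 165 and 164, 6.69 to 7.31 in the other transgenic mice and 7.37 to 7.74 in wild type. Only S100a8 was highest in mice 165 and 164, at 10.41 and 10.05. Elane was highest in wild-type mouse 143 (7.32) and Csf3r in wild-type mouse 142 (7.07). Endothelial markers read higher in 9 of 9 (median 0.27, averages of 11.53 to 12.52 against 11.63 to 12.10), and mesothelium markers read lower in 9 of 9 (median -0.83, averages of 7.62 to 9.31 against 9.25 to 10.05). The averages of the T cell and NK cell markers were thus highest in the mice where the interferon gamma members were highest. The part of the immune cell markers in the result was not tested. B cell markers, 2 tested of 7 fixed, averaged 7.74 in mouse 165 and 5.74 to 6.70 in the other 8 mice. The mean over the 24 type I members was 8.45 to 8.64 in transgenic and 8.28 to 8.43 in wild-type mice, again highest in mice 164 and 165. The groups lay close together, at 8.45 in transgenic mouse 152 and 8.43 in wild-type mouse 159. This mean includes Oasl1, which was favoured by the filter, so the order of these 2 mice is no separation of the genotypes.

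**Figure D4:**
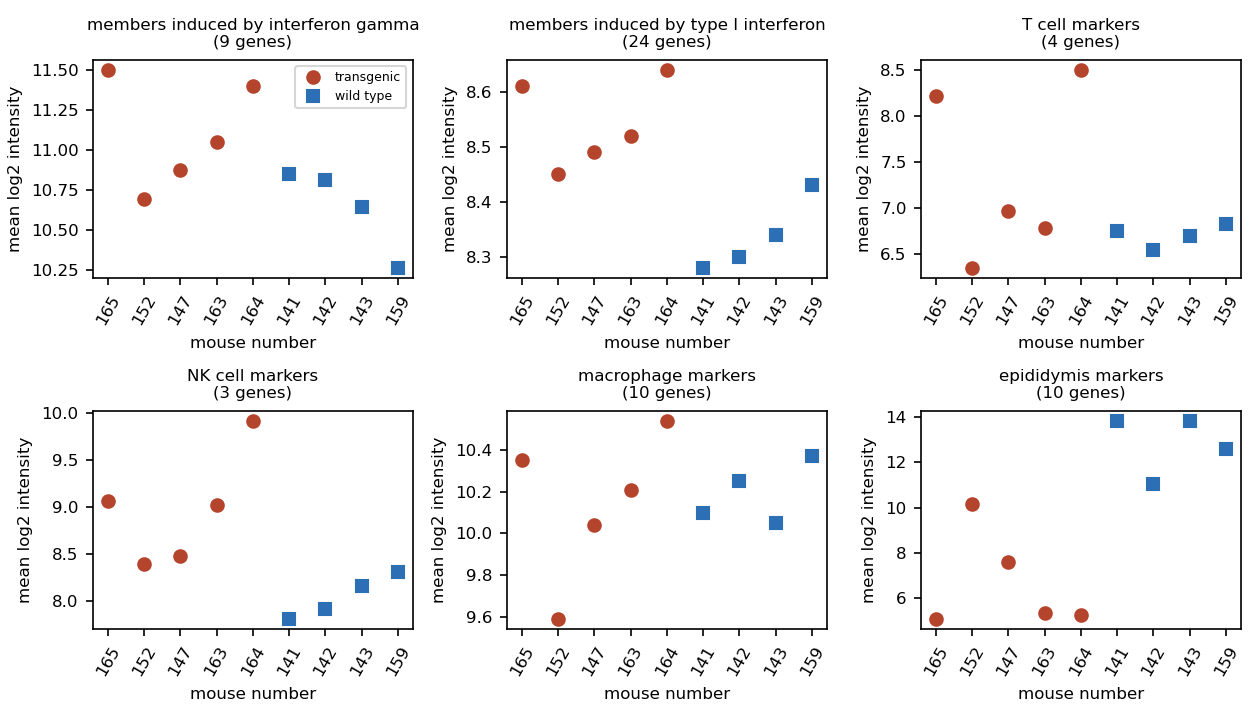
Mean log2 intensity (vertical axis) of the tested genes of 6 lists in each mouse, transgenic as red circles and wild type as blue squares. Mice 165 and 164 are highest for interferon gamma members and for T cell and NK cell markers. The average of the epididymis markers does not overlap between the groups, at 5.08 to 10.16 against 11.06 to 13.84, though some single markers do.

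With the epididymal level as a covariate the median difference was -0.10 for the interferon gamma members and -0.03 for the type I members, and 4 of 9 and 9 of 24 read higher. Rsad2 then differed by -0.01 and Ifit3 by 0.82 (limma adjusted p = 0.988 and 0.457). Genotype and this level are largely the same contrast here, so these values do not separate them. Using only the brighter arrays, the 5 transgenic ones and wild-type mouse 141, the medians were 0.31 and 0.24, with 9 of 9 and 20 of 24 higher. That choice was made after seeing the data and takes the lone wild-type mouse to vary like the others.

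The rest of the pathway was read from lists of genes beside the members, with the 3 lowest p-values of each list named. Of 19 interferon genes, 18 had a probe, 12 of these were detected on 0 arrays, among them Ifng and Ifnb1, and 3 were tested: Ifna6 differed by -0.38, Ifnz by -0.22 and Ifnab by 0.05 (limma adjusted p = 0.565, 0.814 and 0.951). Of the receptors and the Jak-Stat pathway, 13 of 16 were tested, 6 higher and 7 lower, with a median of -0.04 and none called. The lowest p-values were those of Tyk2, the kinase bound to IFNAR1 (0.39), Ifngr2 (0.45) and Ifnar2 (0.44), with limma adjusted p of 0.437, 0.513 and 0.525. Ifnar1 was detected on 0 arrays. Of the genes that sense nucleic acid and induce interferon, 13 of 15 were tested, 5 higher and 8 lower, with a median of -0.06 and none called. Ikbke, a kinase that activates IRF3, read 7.60 to 7.91 in transgenic and 7.02 to 7.52 in wild-type mice, differing by 0.57 without overlap (limma adjusted p = 0.296). Tlr3, a receptor for double-stranded RNA, differed by 0.59 and Ticam1, its adaptor, by -0.23 (limma adjusted p = 0.403 and 0.659).

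Other type I induced genes, 28 tested of 40, read higher in 22 and lower in 6, with a median of 0.28 and none called. Cmpk2, a mitochondrial nucleotide kinase whose gene neighbours Rsad2 on chromosome 12, read 8.98 (165), 8.81 (152), 8.83 (147), 8.97 (163) and 8.72 (164) against 8.32 (141), 8.27 (142), 8.10 (143) and 7.55 (159). The groups did not overlap, and the difference was 0.80, with an interval of 0.42 to 1.19 (limma adjusted p = 0.209). It passed with array weights (limma adjusted p = 0.0462) and without normalization between arrays (0.0395), and in none of the other alternatives. With the epididymal covariate the Cmpk2 difference was 0.73 (limma adjusted p = 0.504). Uba7, the enzyme that activates ISG15, differed by 0.46 without overlap, and Samhd1, which degrades nucleotides, by 0.67 (limma adjusted p = 0.372 and 0.381). Other interferon gamma induced genes, 19 tested of 24, read higher in 16 and lower in 3, with a median of 0.24 and none called. Gbp5 differed by 1.04 without overlap, Gbp7, the gene beside Gbp3, by 1.05 and Irgm2, the gene beside Igtp, by 0.63 (limma adjusted p = 0.314, 0.352 and 0.442). No Gbp5 probe was detected on more than 7 arrays, and Gbp5 read only 5.65 and 5.07 in wild-type mice 143 and 159. The size of its difference is therefore uncertain. In Gbp7 the transgenic mice read 9.03 to 10.08 and the wild-type mice 7.87 to 9.25, and mouse 159 was again lowest.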

How the data were processed

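RNA of epididymal fat from 9 mice (5 transgenic, 4 wild type) was measured on Illumina mouse bead arrays. Per the labels' protocols, the RNA was taken up in Trizol, cleaned on RNeasy columns and labelled with biotin by a MessageAmp kit. The scanner software, any normalization, the slides, litters and cages are not stated there. The authors deposited linear intensity values for 45281 probes in the series matrix and, in a table called non-normalized, intensity values with Illumina's detection p-value per probe and array, per the file headers. Ordered by the series matrix the detection p broke its order at 0 to 1 places per array, but by the other table at 12166 to 12959 places on the 8 arrays where the tables differ (ratio 0.800 to 0.950), so the series matrix was used.

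Values were background-corrected, quantile normalized and put on the log2 scale with neqc (limma 3.58.1, R 4.3.3; offset 16, moments from the detection p). The 23354 probes that 4 or more arrays detected (p under 0.05) were fitted with lmFit and eBayes, two-sided, without covariates, and adjusted by Benjamini-Hochberg over these probes. A gene stands for its brightest tested probe, which is also the rule for genes in the lists. Every member is named, and from each further list the 3 tested genes with the lowest unadjusted p. Genes come from the platform annotation; 34885 probes had 1 symbol, 18 several and 10378 none. The members and lists were chosen with earlier results of these data known. The fit was tested on simulated data. The number of arrays limits the precision, and p-values cover the spread between these mice. Alternatives covered the table used, background correction, offset, scaling, filter, array weights, prior, the epididymal level as a covariate and each mouse left out.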

Additional observations from a re-analysis of the deposited data

Results flagged for a closer look

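In 66 groups of 4 or 5 mice, 1 for each tested member and genotype, the gap between an extreme mouse and its nearest neighbour was set against the range of the group. It was larger than Dixon's 95% critical value in 4 groups, where chance gives about 1 in 20 groups. A count of 4 among 66 groups is near that share, so the flags are a description only. The extreme mouse was transgenic mouse 152 in each of the 4, and these values share its array, so they are not separate results. Isg20 read 9.62 in mouse 152 and 8.25 to 8.52 in the other transgenic mice. Irf9 read 10.82 in mouse 152 and 9.88 to 10.11 in the others. Oas2 read 6.27 in mouse 152 and 6.95 to 7.08 in the others, and Dtx3l read 11.02 against 11.82 to 12.14. Mouse 152 also had the highest epididymis marker level of the transgenic mice, at 10.16. The part of that level in these values was not tested.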

How the results depend on the processing

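Taking each member by its brightest probe, no member passed in 19 of 21 alternatives with a fit; the exceptions were array weights and the analysis without normalization between arrays. With array weights 1 member, Rsad2, and 353 probes passed. With no scaling of the arrays to each other the median of all genes was itself 0.42, and 5 members (Rsad2, Ifit3, Oasl1, Rtp4 and Psmb9) and 1332 probes passed, 1283 of them higher, and the medians were 0.60 for type I and 0.82 for interferon gamma members. With the epididymal level as a covariate the medians were -0.03 and -0.10, and 3 probes passed. Over all probes 16 passed in the main analysis, 9 without a filter, 1 among probes detected on all 9 arrays and 10 with the brighter arrays only. With 1 mouse left out, 4 to 50 probes passed, the latter without mouse 152. The lowest adjusted p of a member then ranged from 0.0655 (without mouse 152) to 0.677. The type I median then ranged from 0.12 to 0.23 and the interferon gamma median from 0.33 to 0.56. All 9 interferon gamma members read higher in 19 of the 21, with 8 without mouse 159 and 4 with the covariate. Of 686 single values of members, 51 had another sign than in the main analysis, none of them called. No paired analysis was possible because the labels give no litter, cage, slide or other pairing of the mice.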
